A study of Mus musculus with 12 samples.

Results

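Before a cell can show a peptide on a major histocompatibility complex (MHC) class I molecule, the peptide must be made, carried and loaded, and the 10 genes described here encode parts of that route together with 1 of its regulators. They were taken by name: Psmb8, Psmb9 and Psmb10, Psme1 and Psme2, Tap1 and Tap2, Tapbp, B2m and Nlrc5. All 10 were found among the 23472 genes of the count table, and all 10 were among the 13184 genes that passed the filter on low counts. The libraries were made from poly-A RNA of LT-HSCs (long-term stem cells of the blood, which sustain its formation from the bone marrow) of C57BL/6 mice. The 6 libraries labelled Jak1 KO came from cre-positive mice and the 6 wt libraries from cre-negative mice. Both groups had received the interferon inducer poly(I:C) as 4 doses at 4 to 6 weeks ahead of marrow collection. Cre itself and the deletion therefore cannot be told apart. In the VD set, sample names carry MXplus for Jak1 KO and MXminus for wt, and the labels do not say what MX stands for. The sources used here do not spell out the cre driver, the deleted exons or the age of the mice. In each group, libraries 1 to 3 carry names of a VD set and libraries 4 to 6 names of a ZL set.

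Total counts lay between 8989965 and 28701855 per library, and all CPM values below are counts scaled to a common library size with edgeR's TMM factors. No label states that each library was a different animal, so the p-values refer to variation among these samples, part of which may be technical. In bulk RNA, fewer cells of a type and less RNA per cell cannot be told apart. The targeted gene Jak1, the kinase that signals for interferon receptors and many interleukin receptors, was counted at 375, 408 and 392 CPM in Jak1 KO libraries 1 to 3 and at 246, 386 and 727 in 4 to 6, against 358, 341 and 321 CPM in wt libraries 1 to 3 and 435, 365 and 422 in 4 to 6. The log2 fold change of Jak1 was 0.18 (SE 0.20, edgeR adjusted p = 0.945), so this gene-level count does not check the labels, and the group is named by its label throughout. Markers of LT-HSCs were present: the summed level of 12 such genes ran over 2208, 3029 and 4558 CPM (lowest, median, highest) in Jak1 KO libraries and over 2584, 2964 and 4492 CPM in wt libraries. Of the tested markers of other blood cells 0 passed edgeR's adjusted threshold, with 2 at an unadjusted p under 0.05 (Epor and Flt3). DESeq2 called 0 of them and limma-voom 2 (Mpo and Epor). Of the 12 LT-HSC markers edgeR and DESeq2 called 0 over all 12 libraries and limma-voom 2 (Ly6a and Hlf). By edgeR 3 had an unadjusted p under 0.05 (Ly6a, Slamf1 and Mllt3). In VD alone edgeR called 1 lower and 1 higher (Ly6a and Hlf). Of all 13184 genes tested, 667 had such an unadjusted p and limma-voom called 220. In VD alone edgeR called 96 of all genes lower and 46 higher. Neutrophil marker sums varied most, with 14.0, 209.9 and 734 CPM (lowest, median, highest) in Jak1 KO libraries and 9.70, 133 and 729 CPM in wt libraries; erythroid marker sums were 20.4 to 53.4 CPM in Jak1 KO libraries and 42.9 to 63.5 CPM in wt libraries, with Hba-a1 at 0 counts in all 12.

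As background, most cells degrade proteins with a proteasome whose cutting subunits are encoded by Psmb6, Psmb7 and Psmb5. Interferon induces the replacements Psmb9, Psmb10 and Psmb8, which form the immunoproteasome, and the activator cap PA28, encoded by Psme1 and Psme2. The transporter of Tap1 and Tap2 carries the peptides into the endoplasmic reticulum, where tapasin (Tapbp) holds empty class I molecules against it, and beta-2 microglobulin (B2m) is the light chain of every class I molecule. Nlrc5 encodes the transactivator that acts at class I promoters, and Jak1 is needed for the interferon signal that acts through Irf9 and Irf1.

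Of the 10 genes, 6 lie on chromosomes 8, 14 and 2 or apart on chromosome 17, and 4 lie side by side. In GRCm38 coordinates of the GENCODE annotation, Psmb9 (chr17:34181987-34187764, minus strand), Tap1 (chr17:34187553-34197225, plus strand), Psmb8 (chr17:34197721-34201454, plus strand) and Tap2 (chr17:34203527-34216321, plus strand) fill 34335 bp of the MHC. Psmb9 and Tap1 run away from each other, and their RefSeq starts are 226 bp apart. Tapbp lies elsewhere on the same chromosome (chr17:33915899-33929292). Psme1 (chr14:55578123-55581529) and Psme2 (chr14:55587441-55591113) are also close neighbours. Psmb10 (chr8:105935735-105938444), Nlrc5 (chr8:94434356-94527272) and B2m (chr2:122147686-122153083) stand alone.

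RefSeq promoter windows of GRCm38.p6, each from 250 bases before to 50 bases after the start, were found for 8 of the 10 genes, and Tap2 and Nlrc5 were without an entry. They were searched on both strands for the interferon response core, GAAA and GAAA with any 2 bases between them, which 3.44% of 32851 promoter windows hold, for the STAT pattern TTCNNNGAA, which 8.3% hold, and for the CCAAT box, which 37.4% hold. Windows of Tap1, B2m, Psme1 and Psmb8 are printed 5′ to 3′ on the gene's own strand, because they carry the gene with the clearest genotype difference and each match to the interferon or STAT pattern. Capitals mark the matches to the interferon response core or to TTCNNNGAA. The 4 windows are chr17:34187306-34187605 (plus strand, Tap1), chr2:122147437-122147736 (plus strand, B2m), chr14:55578244-55578543 (plus strand, Psme1) and chr17:34197945-34198244 (plus strand, Psmb8).
Tap1: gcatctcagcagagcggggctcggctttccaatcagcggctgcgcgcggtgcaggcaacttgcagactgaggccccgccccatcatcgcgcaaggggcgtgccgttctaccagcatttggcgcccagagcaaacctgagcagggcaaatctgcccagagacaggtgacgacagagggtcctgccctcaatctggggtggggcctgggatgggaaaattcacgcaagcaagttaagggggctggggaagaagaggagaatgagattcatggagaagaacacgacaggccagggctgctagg
B2m: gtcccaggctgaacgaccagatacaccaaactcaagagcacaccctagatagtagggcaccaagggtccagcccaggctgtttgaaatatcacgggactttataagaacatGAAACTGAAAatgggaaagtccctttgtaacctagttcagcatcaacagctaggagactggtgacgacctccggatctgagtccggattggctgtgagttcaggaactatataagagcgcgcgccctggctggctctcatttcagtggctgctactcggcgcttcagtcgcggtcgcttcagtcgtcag
Psme1: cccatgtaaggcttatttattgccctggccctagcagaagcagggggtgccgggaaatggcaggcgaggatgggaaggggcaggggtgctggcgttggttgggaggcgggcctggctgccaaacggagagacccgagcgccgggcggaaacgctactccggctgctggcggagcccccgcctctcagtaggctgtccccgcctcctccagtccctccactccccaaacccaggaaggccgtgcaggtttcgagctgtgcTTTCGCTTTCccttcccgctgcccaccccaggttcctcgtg
Psmb8: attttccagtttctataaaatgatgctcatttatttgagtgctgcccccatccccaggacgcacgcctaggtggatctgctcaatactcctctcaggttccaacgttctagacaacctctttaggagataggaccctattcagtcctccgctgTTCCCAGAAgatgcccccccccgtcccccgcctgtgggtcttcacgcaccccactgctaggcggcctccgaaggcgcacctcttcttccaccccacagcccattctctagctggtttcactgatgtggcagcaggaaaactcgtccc
B2m holds GAAACTGAAA with its first base at position -139 from the start. Psme1 holds the same pattern on the other strand, read as TTTCGCTTTC from position 10. Psmb8 holds TTCCCAGAA from position -97. The Tap1 window shares 275 bases with the Psmb9 window on the opposite strand, and neither pattern is in them, nor in the windows of Tapbp, Psmb10 and Psme2. CCAAT boxes are in the windows of Tap1, Psmb9, B2m and Tapbp. For Tapbp, Psmb8 and Psme1 the RefSeq start differs from the GENCODE start, and the whole window lies inside the GENCODE gene. A match describes letters only, and a missing match says only that those letters are not in the window.

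Across the 12 libraries 1 of the 10 genes, Tap1, was lower in Jak1 KO than in wt at an edgeR adjusted p under 0.05, and 0 were higher. Over all genes tested, 0.432% were called lower and 0.00758% higher. At an unadjusted p under 0.05, 4 of the 10 were lower (Tap1, Nlrc5, Tapbp and B2m) and 0 higher, beside 2.66% of all genes lower, and DESeq2 called 2 of the 10 lower (Tap1 and Nlrc5) and 0 higher, beside 0.747% of all genes lower. The limma-voom fit with sample weights called 7 lower, beside 1.32%. The log2 fold change was below 0 for 9 of the 10, as it was for 51% of all genes, and its median was -0.33 over the 10 and -0.0060 over all genes tested. In the VD libraries all 3 Jak1 KO values lay below all 3 wt values for 9 of the 10 genes, Tap2 being the exception. That was so for 13.2% of all genes. In the ZL libraries it held for 2, Tap1 and Tapbp, beside 2.34% of all genes, and these were the 2 genes for which it held in both sets, beside 0.963%. Fitted alone, the VD libraries gave 6 genes lower at an adjusted p under 0.05 (Psmb8, Psmb9, Psmb10, Tap1, B2m and Nlrc5), beside 0.728% of all genes, with 4 to 6 when a library was left out, and 9 lower at an unadjusted p under 0.05, beside 7.17%. Fitted alone, the ZL libraries gave 0 by edgeR, beside 0% of all genes, while 2 were lower at an unadjusted p under 0.05, beside 1.03%. At its adjusted threshold DESeq2 called 1 of the 10 in ZL, and its count over all genes is given in the last section. A difference of the genotype effect between the sets was called for 0 of the 10 by edgeR, beside 0% of all genes, with 0 at an unadjusted p under 0.05, where 1.38% of all genes were, and 0 by DESeq2.

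**Figure D1:**
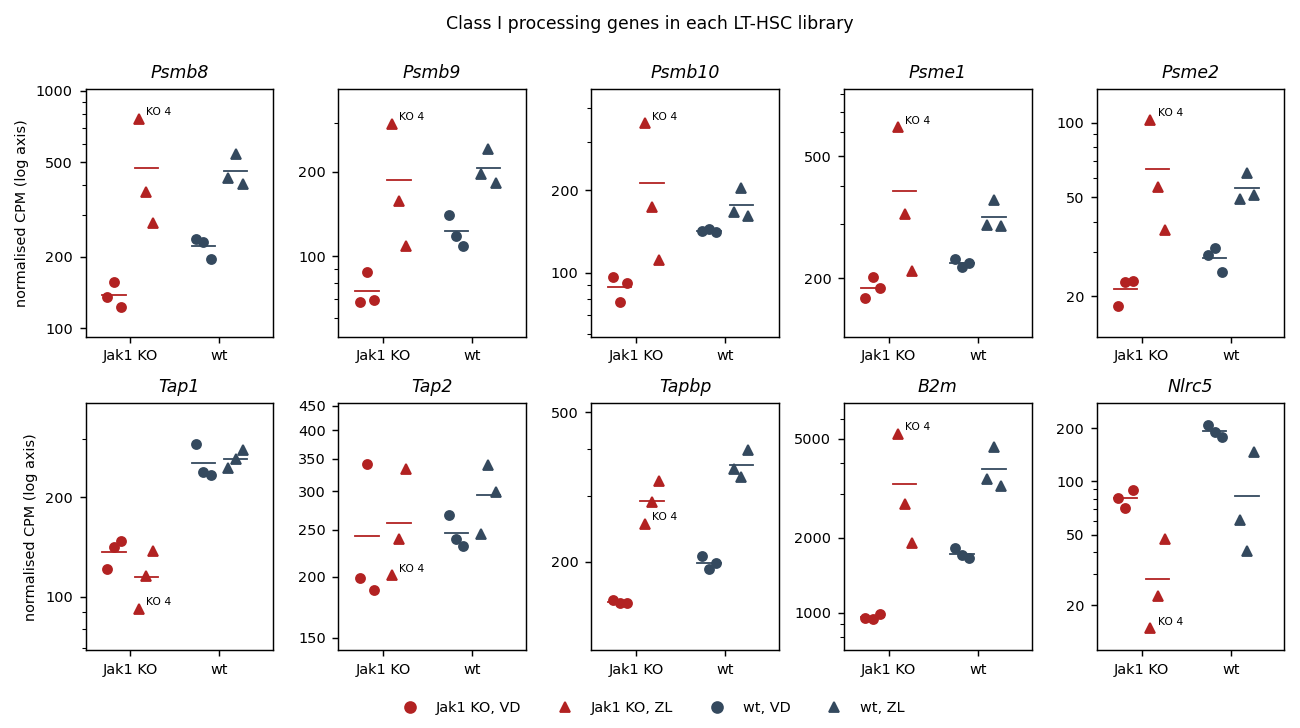
Normalised CPM of the 10 genes in each library, on a log axis that differs between panels, with Jak1 KO left of wt, circles for VD and triangles for ZL. Horizontal lines are means of 3 libraries. Tap1 alone has all 6 Jak1 KO points, 91.9 to 147 CPM, below all 6 wt points, 234 to 289 CPM. The ZL library Jak1 KO 4 is the highest Jak1 KO point for 6 genes and the lowest ZL point for Tap1, Nlrc5, Tapbp and Tap2.

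Library Jak1 KO 4 stood furthest apart and touches most results. It had the lowest of the sample weights that limma-voom gave, 0.165, and the largest distance on the first principal component, 84.8. Libraries wt 6 (weight 0.215) and Jak1 KO 6 (weight 0.359) lay on the other side of that component, at -66.7 and -49.8. Within Jak1 KO 4 the Spearman correlation across genes between exon length and level relative to the ZL mean was -0.60. Genes are not independent replicates. The correlation was -0.20 in Jak1 KO 5, 0.52 in Jak1 KO 6 and -0.32 to 0.43 in the ZL wt libraries, with 0.43 in wt 6. In the VD libraries the correlation stayed between -0.12 and 0.16. Its summed level of 5 B cell markers, 142.5 CPM, was also the highest: the sums ran from 28.8 to 142.5 CPM in Jak1 KO libraries and from 27.9 to 68.4 CPM in wt libraries. That sum was almost wholly Cd79b, which reached 141 CPM. In the Jak1 KO libraries Ms4a1 and Pax5 were at most 0.438 CPM, Cd79a at most 0.83 CPM and Cd22 at most 1.098 CPM. Whether B cells were present, and what part they had in the result, was not tested. The 6 genes with exons of 860 to 1628 bp (B2m, Psme2, Psme1, Psmb10, Psmb9 and Psmb8) had 2.23 to 2.47 times the mean CPM of Jak1 KO 5 and 6 in this library, each above every ZL wt library. The constitutive subunits Psmb5, Psmb6 and Psmb7, with exons of 899, 798 and 1160 bp, were higher in it likewise, at 2.19, 2.28 and 1.90 times. Tapbp, Tap1 and Tap2, with exons of 2898, 2953 and 3442 bp, had 0.820, 0.726 and 0.703 times that mean, and Nlrc5, with 7578 bp, 0.425 times. The part that length plays in the genotype differences was not tested beyond the values with and without this library and with a length term. Without it, 2 of the 10 genes (Tap1 and B2m) were called lower, beside 0.569% of all genes, and in 5 of the 10 (Tap1, Tapbp, Psmb8, Psmb9 and B2m) the Jak1 KO values lay below the wt values in both sets, beside 1.46%.

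**Figure D2:**
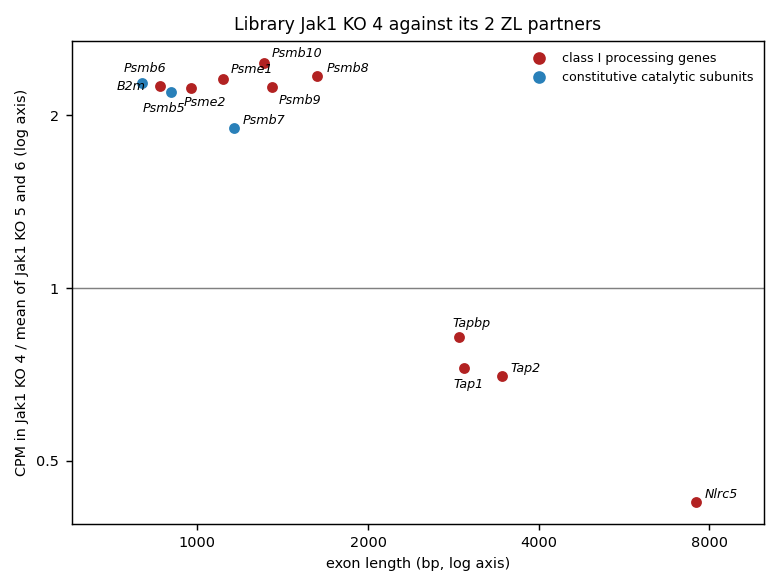
CPM in library Jak1 KO 4 divided by the mean of Jak1 KO 5 and 6 (vertical log axis) against exon length in bp (horizontal log axis) for the 10 genes, in red, and 3 constitutive proteasome subunits, in blue. Genes up to 1628 bp lie between 1.90 and 2.47, and those from 2898 bp lie between 0.425 and 0.820.

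Psmb8 encodes beta5i, the immunoproteasome subunit with chymotrypsin-like activity. It had 136, 156 and 123 CPM in Jak1 KO libraries 1 to 3, against 238, 231 and 196 CPM in wt libraries 1 to 3, and 763, 376 and 277 CPM in Jak1 KO libraries 4 to 6, against 429, 543 and 405 CPM in wt libraries 4 to 6. Every Jak1 KO value lay below every wt value in VD, while in ZL library Jak1 KO 4 was the highest of the 6 and the other two were the lowest. The log2 fold change was -0.64 in VD (SE 0.10, adjusted p = 0.00390) and 0.047 in ZL (SE 0.39), and over all 12 it was -0.32 (SE 0.23, adjusted p = 0.945). Without Jak1 KO 4 it was -0.57 (SE 0.14, adjusted p = 0.149).

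Psmb9, which encodes beta1i, had 68.8, 87.5 and 69.6 CPM in the Jak1 KO libraries of VD, against 140.4, 118 and 109 CPM in wt, and 297, 157 and 108 CPM in the Jak1 KO libraries of ZL, against 196, 241 and 182 CPM in wt. The pattern was that of Psmb8: separated groups in VD, and Jak1 KO 4 above and Jak1 KO 5 and 6 below the wt libraries in ZL. Psmb9 had a log2 fold change of -0.67 in VD (SE 0.12, adjusted p = 0.0109), -0.13 in ZL (SE 0.39) and -0.42 over all 12 (SE 0.22, adjusted p = 0.945).

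Psmb10 encodes beta2i, the subunit with trypsin-like activity. Its values were 96.3, 78.1 and 92.2 CPM in the Jak1 KO libraries of VD, against 142, 145 and 141 CPM in wt, and 351, 174 and 111 CPM in the Jak1 KO libraries of ZL, against 167, 204 and 161 CPM in wt. The wt libraries of VD lay close together and all Jak1 KO libraries lay below them. In ZL, Jak1 KO 4 was the highest, Jak1 KO 6 the lowest, and Jak1 KO 5 lay among the wt libraries. Psmb10 had a log2 fold change of -0.64 in VD (SE 0.10, adjusted p = 0.00267), 0.26 in ZL (SE 0.42) and -0.21 over all 12 (SE 0.26, adjusted p = 0.945). Its difference between the sets had the smallest p of the 10 genes, 0.0602 unadjusted and 0.975 adjusted.

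The PA28 genes did not pass the test in either set. Psme1, which encodes the alpha subunit of the cap, had 172, 201 and 186 CPM in the Jak1 KO libraries of VD, against 232, 218 and 225 CPM in wt, and 622, 325 and 212 CPM in the Jak1 KO libraries of ZL, against 298, 360.3 and 296 CPM in wt. Groups were apart in VD and overlapped in ZL. The log2 fold change was -0.23 in VD (adjusted p = 0.219), 0.29 in ZL and 0.0052 over all 12 (SE 0.22, adjusted p = 0.997). The sign of the value over all 12 turned in 7 of 23 alternatives. Without library Jak1 KO 4 the log2 fold change of Psme1 was -0.23 (SE 0.13, edgeR unadjusted p = 0.11). Psme2, which encodes the beta subunit, had 18.3, 22.7 and 23.0 CPM in the Jak1 KO libraries of VD, against 29.2, 31.3 and 25.0 CPM in wt, and 103, 55.2 and 36.9 CPM in the Jak1 KO libraries of ZL, against 49.5, 62.6 and 51.2 CPM in wt. The VD groups did not overlap and the ZL groups did. The log2 fold change over all 12 was -0.078 (SE 0.23, adjusted p = 0.966), with a sign that turned in 3 of 23 alternatives. By set, it was -0.38 in VD (edgeR unadjusted p = 0.048, adjusted p = 0.363) and 0.26 in ZL. Without library Jak1 KO 4 the log2 fold change of Psme2 was -0.31 (SE 0.16, edgeR unadjusted p = 0.0724, adjusted p = 0.916). Psme2 has a near-identical intronless copy in the genome, so its reads may have been split or lost in counting.

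Tap1, which encodes 1 chain of the peptide transporter, had 121, 141 and 147 CPM in the Jak1 KO libraries of VD, against 289, 239 and 234 CPM in wt, and 91.9, 116 and 138 CPM in the Jak1 KO libraries of ZL, against 244, 261 and 277 CPM in wt. All 6 Jak1 KO libraries lay below all 6 wt libraries, which no other of the 10 genes showed and 0.356% of all genes did. The mean was 126 ± 20.5 CPM in Jak1 KO libraries and 258 ± 22.3 CPM in wt libraries (SD, n = 6 each). Tap1 fell to 48.7% of wt, a log2 fold change of -1.04 (SE 0.14, 95% interval -1.34 to -0.74, adjusted p = 0.00169). By set, it was -0.86 in VD (SE 0.10, adjusted p = 0.000213) and -1.18 in ZL (SE 0.25, unadjusted p = 0.00149, adjusted p = 0.654). A fit with no set term gave -1.03 with an adjusted p of 0.0700. Its annotated 5′ end overlaps that of Psmb9 on the other strand, and reads there cannot be told apart without a strand setting.

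Tap2, which encodes the partner chain, had 199, 342 and 188 CPM in the Jak1 KO libraries of VD, against 268, 239 and 232 CPM in wt, and 201, 239.9 and 333 CPM in the Jak1 KO libraries of ZL, against 245, 339 and 299 CPM in wt. The groups overlapped in both sets, and Jak1 KO 2 and 6 were higher than most wt libraries. The log2 fold change was -0.11 (SE 0.18, 95% interval -0.49 to 0.28, adjusted p = 0.947), an interval that does not reach the Tap1 value. An antisense gene model, Gm20496, overlaps Tap2 and Psmb8, so part of their reads may belong to it, as Zbtb22 and Patl2 overlap Tapbp and B2m.

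Tapbp, tapasin, had 158, 155 and 156 CPM in the Jak1 KO libraries of VD, against 207, 192 and 199 CPM in wt, and 253, 288 and 328 CPM in the Jak1 KO libraries of ZL, against 353, 336 and 397 CPM in wt. The groups were apart in each set. The log2 fold change was about the same size in both, -0.31 in VD (SE 0.077, adjusted p = 0.0709) and -0.32 in ZL (SE 0.22, adjusted p = 0.946). Over all 12 libraries it was -0.34 (SE 0.12, 95% interval -0.58 to -0.089), with an unadjusted p of 0.0113 and an adjusted p of 0.662.

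B2m had 954, 942 and 991 CPM in the Jak1 KO libraries of VD, against 1815, 1703 and 1664 CPM in wt, and 5212, 2737 and 1901 CPM in the Jak1 KO libraries of ZL, against 3437, 4632 and 3222 CPM in wt. In VD the groups were far apart, and in ZL Jak1 KO 5 and 6 were the lowest and Jak1 KO 4 the highest. Fitted by set, the log2 fold change was -0.80 in VD (SE 0.074, adjusted p = 2.94e-05) and -0.19 in ZL (SE 0.38, adjusted p = 0.946). Over all 12 it was -0.52 (SE 0.22, adjusted p = 0.872), and without Jak1 KO 4 it was -0.75 (SE 0.13, adjusted p = 0.0217).

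Nlrc5, the transactivator, had 80.6, 70.5 and 89.4 CPM in the Jak1 KO libraries of VD, against 208, 189 and 179 CPM in wt, and 14.8, 22.4 and 47.2 CPM in the Jak1 KO libraries of ZL, against 60.8, 40.2 and 146 CPM in wt. In VD every Jak1 KO value was well below every wt value, while in ZL Jak1 KO 6 lay above wt 5. Nlrc5 had a log2 fold change of -1.22 in VD (SE 0.10, adjusted p = 1.15e-05) and -1.53 in ZL (SE 0.58, adjusted p = 0.946). Over all 12 it was -1.40 (SE 0.31, 95% interval -2.07 to -0.73), the largest in size of the 10 genes, with an adjusted p of 0.0898 that misses the threshold. Leaving out Jak1 KO 6 gave an adjusted p of 0.0347 and leaving out wt 5 gave 0.0472, and over all alternatives the adjusted p ran from 0.000108 to 1.00.

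**Figure D3:**
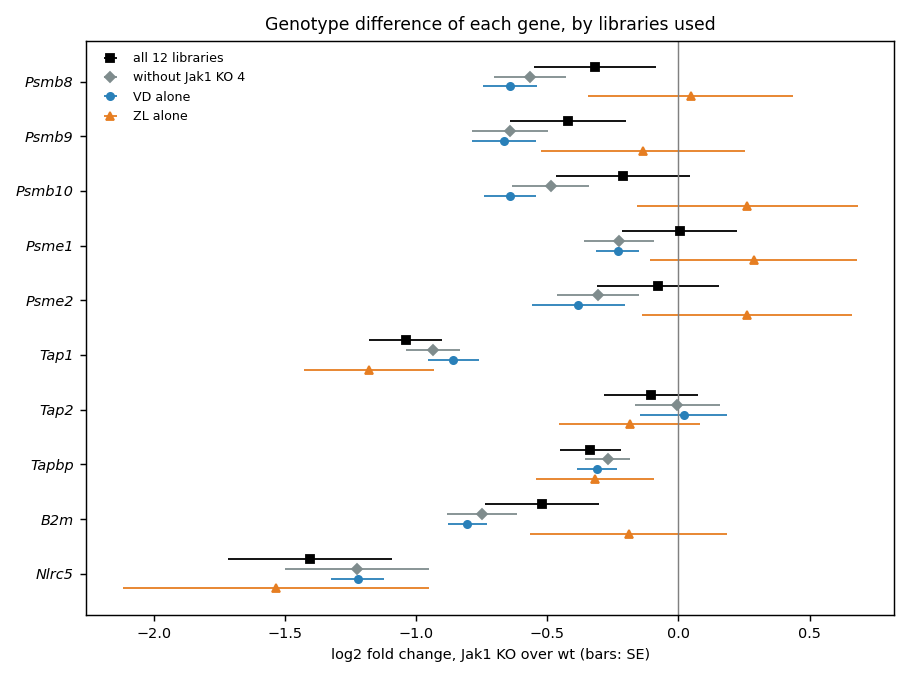
Log2 fold change of Jak1 KO over wt (horizontal axis, bars SE) for each of the 10 genes from all 12 libraries, without Jak1 KO 4, from VD alone and from ZL alone. Bars from ZL alone are the widest. For Psmb8, Psmb9, Psmb10 and B2m the value is -0.57, -0.64, -0.49 and -0.75 without Jak1 KO 4, and -0.64, -0.67, -0.64 and -0.80 from VD alone. Both fits hold all VD libraries, so these values are not independent.

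A ratio of 2 partner genes within a library is untouched by library scaling, though a trend with exon length does not cancel where the partners differ in length. There were 6 such ratios, compared by exact two-sided permutation of genotype within the sets (400 relabelings, smallest p 0.005), adjusted over the 6. The first 3 set each immunoproteasome subunit against the constitutive subunit it replaces, whose own log2 fold changes had opposite signs in the sets. They were -0.29 in VD and 0.49 in ZL for Psmb5, -0.23 in VD and 0.47 in ZL for Psmb6, and -0.19 in VD and 0.28 in ZL for Psmb7, and over all 12 libraries 0.084, 0.099 and 0.023 in that order of genes. Processed pseudogenes of Psmb5, Psmb6 and Psmb7 may take some of their reads. Psmb9 over Psmb6 ran from 0.797 to 0.949 in the Jak1 KO libraries of VD, against 1.06 to 1.26 in wt, and from 0.565 to 0.642 in the Jak1 KO libraries of ZL, against 0.848 to 0.971 in wt. No Jak1 KO library reached a wt library of its set, Jak1 KO 4 included, and the ratio was 70.0% of wt, a difference of -0.51 on the log2 scale (exact permutation p = 0.005, adjusted p = 0.015). Psmb8 over Psmb5 ran from 3.42 to 4.33 in the Jak1 KO libraries of VD, against 4.27 to 5.25 in wt, and from 3.77 to 4.20 in the Jak1 KO libraries of ZL, against 5.25 to 5.82 in wt. The groups were apart in ZL and overlapped in VD, where Jak1 KO 1 (4.33) lay above wt 3 (4.27). The ratio was 75.7% of wt, a difference of -0.40 (exact permutation p = 0.01, adjusted p = 0.02). Psmb10 over Psmb7 ran from 0.917 to 1.15 in the Jak1 KO libraries of VD, against 1.30 to 1.58 in wt, and from 1.33 to 2.04 in the Jak1 KO libraries of ZL, against 1.53 to 2.08 in wt. It overlapped in ZL, and its difference of -0.28 did not pass (exact permutation p = 0.065, adjusted p = 0.084).

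Tap1 over Tap2 ran from 0.413 to 0.781 in the Jak1 KO libraries of VD, against 0.998 to 1.08 in wt, and from 0.414 to 0.482 in the Jak1 KO libraries of ZL, against 0.770 to 0.996 in wt. The transporter's 2 messages were thus counted at about equal CPM in wt libraries and at unequal CPM in Jak1 KO libraries, with no overlap in either set. The ratio was 53.4% of wt, a difference of -0.91 (exact permutation p = 0.005, adjusted p = 0.015). Psme1 over Psme2 did not differ beyond its spread, with a difference of 0.078 (exact permutation p = 0.24, adjusted p = 0.24). Psmb9 over Tap1, the pair that shares a promoter region, ran from 0.474 to 0.621 in the Jak1 KO libraries of VD, against 0.465 to 0.496 in wt, and from 0.788 to 3.23 in the Jak1 KO libraries of ZL, against 0.657 to 0.924 in wt. The ratio was 3.23 in Jak1 KO 4, 1.36 in Jak1 KO 5 and 0.788 in Jak1 KO 6. Exons are 1352 bp in Psmb9 and 2953 bp in Tap1. The difference of 0.57 in this ratio did not pass (exact permutation p = 0.07, adjusted p = 0.084). Within 1 set of 3 against 3 libraries the smallest possible p is 0.1, so no ratio can pass there. Without wt 6, Jak1 KO 4 and Jak1 KO 6, an alternative chosen after seeing the data, the differences were -0.56 for Psmb9 over Psmb6, -0.47 for Psmb8 over Psmb5 and -0.84 for Tap1 over Tap2, each with an adjusted p of 0.05, which is not below the threshold. Psmb10 over Psmb7 was then at -0.31, with the same unadjusted exact permutation p as Psmb8 over Psmb5, 0.0333, and so the same adjusted p.

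**Figure D4:**
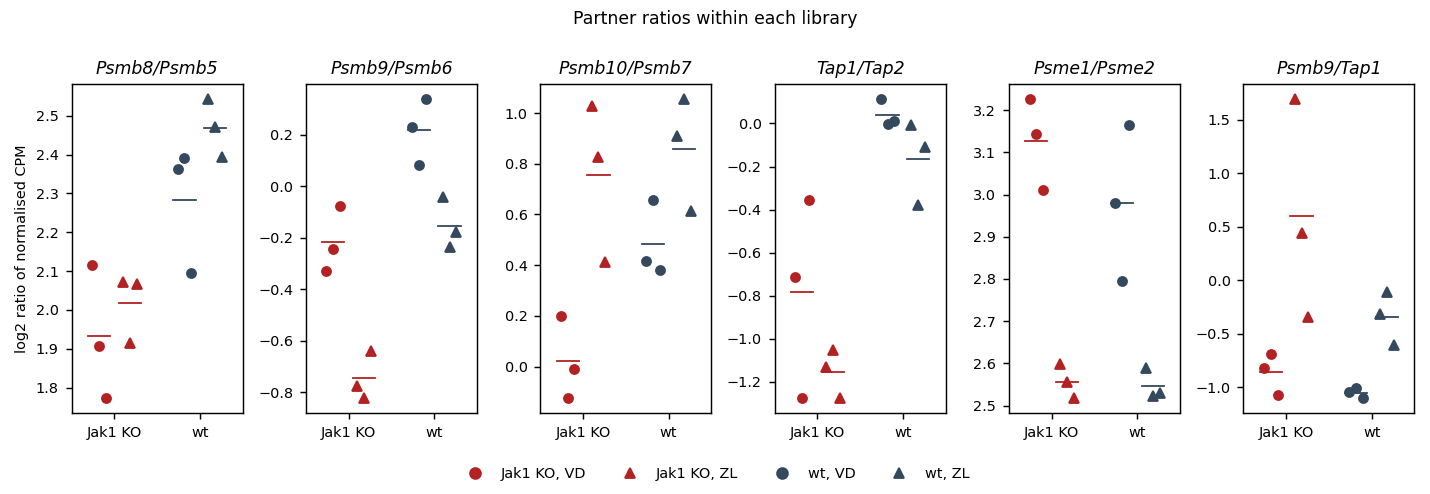
Log2 ratio of the normalised CPM of 2 partner genes in each library, with Jak1 KO left of wt, circles for VD and triangles for ZL; lines are means of 3 libraries and the axis differs between panels. Psmb9/Psmb6 and Tap1/Tap2 are lower in each Jak1 KO library than in any wt library of the same set, with mean log2 ratios of -0.48 and -0.97 in Jak1 KO and 0.033 and -0.062 in wt.

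To compare levels between genes, CPM was divided by exon length in kb, in the VD libraries, where the spread was smaller. B2m led in both groups, with 1119 ± 29.8 CPM per kb in Jak1 KO libraries and 2008 ± 90.9 in wt libraries (SD, n = 3 each), and Psme1 came next with 168 ± 13.2 in Jak1 KO and 202 ± 6.13 in wt. In wt libraries Psmb8 (136 ± 13.7) and Psmb10 (109 ± 1.47) followed, and then Psmb9 (90.6 ± 11.98), Tap1 (86.0 ± 10.4), Tap2 (71.6 ± 5.49) and Tapbp (68.7 ± 2.62). The SDs of Psmb9 and Tap1, of Tap1 and Tap2, and of Tap2 and Tapbp overlapped. In Jak1 KO libraries came Psmb8 (85.0 ± 10.3), Tap2 (70.6 ± 24.9), Psmb10 (67.8 ± 7.30), Psmb9 (55.7 ± 7.82), Tapbp (53.9 ± 0.51) and Tap1 (46.2 ± 4.55), with Tap1 lowest of the 6. The SD of Tap2 was the widest of these and overlapped each of the others, while those of Psmb8 and Tap1 did not overlap each other. Psme2 (21.8 ± 2.68 in Jak1 KO, 29.2 ± 3.29 in wt) and Nlrc5 (10.6 ± 1.25 in Jak1 KO, 25.4 ± 1.94 in wt) were lowest in both groups.

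Other genes of the route were read from lists by role, beside the 1 of 10 called above. There were 3 constitutive counterparts, 11 other 20S core subunits, 18 subunits of the 19S cap, 8 assembly factors and 2 tested activators. Over all 12 libraries 0 of these 42 were called by edgeR, 0 by DESeq2 and 0 by limma-voom, and 0 reached an unadjusted p under 0.05. The sets went opposite ways. In VD 41 of the 42 log2 fold changes were below 0 (median -0.21), as were 6475 of all 13184 genes. In ZL 38 of 42 were above 0 (median 0.36), as were 6542 of all genes. In VD the Jak1 KO values lay below the wt values for 25 of the 42, 14 were lower at an unadjusted p under 0.05 and 1, Psme3, was called (-0.40, adjusted p = 0.0473), beside the shares of all genes given above. Values below wt in VD were thus common among proteasome genes at large, though smaller in size: the median log2 fold change in VD was -0.21 for the 42 and -0.64 for the 10 genes of the route, a difference that was not tested. The other 20S subunits had log2 fold changes of 0.049 to 0.16 over all 12 libraries with a median of 0.078, made up of -0.32 to -0.047 in VD, with 8 of 11 apart, and 0.29 to 0.53 in ZL. Psma1 had 0.16 (adjusted p = 0.945) and Psmb1 0.15 over all 12. The 19S cap had a median of 0.011, with Psmd2 at -0.27 (adjusted p = 0.945) and Psmd1 at -0.17, and the assembly factors had a median of 0.023, with Pomp, the maturation factor of the 20S core, at 0.15 and Psmg2 at 0.10. The activators Psme3 and Psme4, which cap proteasomes without PA28 alpha and beta, were at -0.26 and -0.25 (adjusted p = 0.945 each).

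Loading and quality control genes of the endoplasmic reticulum had log2 fold changes below 0 (7 of 7, median -0.28), beside 51% of all genes. By edgeR and by DESeq2 0 were called, and 2 were lower at an unadjusted p under 0.05, beside 2.66% of all genes, the chaperones Hspa5 at -0.51 (adjusted p = 0.521 by edgeR and 0.00977 by limma-voom, its 1 call) and Calr at -0.33 (adjusted p = 0.902). Of 8 peptidases that cut or trim peptides 0 were called by either tool, and 0 reached an unadjusted p under 0.05. Their median was -0.21, with Thop1 at -0.31 and Erap1, which trims inside the endoplasmic reticulum, at -0.46 (adjusted p = 0.945 each).

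Of 15 regulators read here, 1 fell (Irf9) and 0 rose, where 0.432% of all genes were called lower. At an unadjusted p under 0.05, 3 were lower (Irf9, Irf1 and Ciita), beside 2.66% of all genes, and DESeq2 called the same 3, beside 0.747%. The limma-voom fit called 2 (Irf9 and Irf1), beside 1.32%, and the Jak1 KO values lay below the wt values in both sets for 3, beside 0.963%. Irf9, a DNA-binding factor of the type I interferon response, averaged 47.1 ± 7.43 CPM in Jak1 KO libraries and 123 ± 36.6 CPM in wt libraries (log2 fold change -1.35, SE 0.14, adjusted p = 0.000340). Irf1, which binds the interferon response element of class I genes, averaged 95.3 ± 22.4 CPM in Jak1 KO libraries and 152 ± 46.2 CPM in wt libraries, a log2 fold change of -0.66 (SE 0.14, adjusted p = 0.0621). Ciita, the transactivator of MHC class II genes, averaged 3.79 ± 0.65 CPM in Jak1 KO libraries and 8.33 ± 3.59 CPM in wt libraries (log2 fold change -1.10, SE 0.28, adjusted p = 0.203). All 6 Jak1 KO values lay below all 6 wt values for both Irf9 and Ciita, beside 0.356% of all genes. For Ciita the gap was narrow, from 5.06 CPM in the highest Jak1 KO library to 5.16 CPM in the lowest wt library. For Irf9 it ran from 55.5 to 89.8 CPM. Rfx5, a factor that binds the X box of MHC promoters, had -0.21 (SE 0.26, adjusted p = 0.945). The median of the 15 was -0.10.

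**Figure D5:**
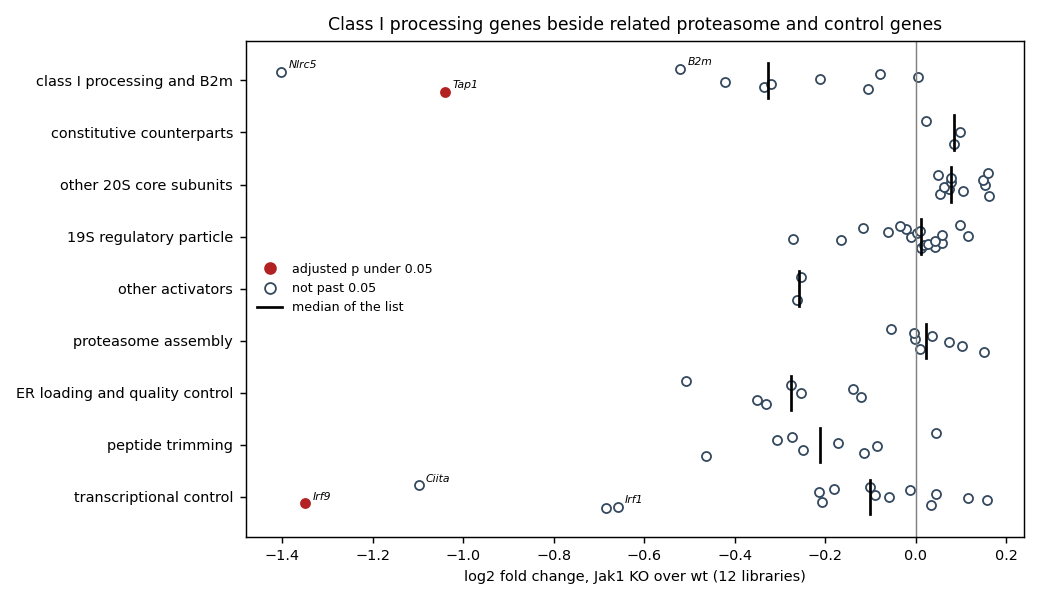
Log2 fold change of Jak1 KO over wt (horizontal axis) for each tested gene of 9 lists, with filled points for adjusted p under 0.05 and a vertical bar at each list's median. The 10 class I processing genes have a median of -0.33, the 11 other 20S subunits 0.078 and the 15 regulators -0.10, and filled points are Tap1 and Irf9.

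For 4 of the 10 genes, the most alike patterns among 9925 other genes of at least 10 CPM were sought as the smallest root mean square distance of log2 CPM, centred within set, over 12 libraries. Nearest to Tap1 were Gbp3, a guanylate-binding protein induced by interferon (0.0961), the urea transporter Slc14a1 (0.119) and the thrombin receptor F2r (0.186), beside a spread of Tap1 itself of 0.58. Nearest to Nlrc5, whose own spread was 0.91, were Vwf, von Willebrand factor (0.293), the RNA-editing enzyme Adar (0.302) and the cannabinoid receptor Cnr2 (0.308). Nearest to Psmb8 (spread 0.43) were the chaperone cofactor Sdf2l1 (0.119), Ifitm3, an interferon-induced membrane protein (0.124), and Etfb, an electron transfer flavoprotein subunit (0.135). Nearest to B2m (spread 0.47) were the class I heavy chains H2-K1 (0.0943) and H2-D1 (0.0962), and then Ifitm3 (0.119). Genotype and the libraries that stand apart both enter these distances.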

How the data were processed

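RNA had been extracted with Trizol and sequenced from poly-A TruSeq libraries, per the labels' protocols. The authors deposited raw read counts per gene for 12 libraries; per the submitters' processing notes they used STAR 2.3.0e, featureCounts, Subread and mm10. Annotation and strand setting: not given in the sources used here. Columns were matched by sample description, groups by title, and 0 sample columns were left unused. Exon lengths and positions came from GENCODE (GRCm38), where 23106 of 23472 symbols matched, 1236 as older symbols.

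Counts were fitted in edgeR 4.0.16 (R 4.3.3) with filterByExpr, TMM, terms for name set and genotype and the quasi-likelihood F test, adjusted by Benjamini-Hochberg over 13184 genes at 0.05. SE was |log2 fold change| over root F. Each set was fitted alone, and an interaction tested the sets against each other. Ratios and log2 CPM used a prior count of 2. The procedure was tested on simulated data. Alternatives included DESeq2 1.42.0, limma 3.58.1 voom, other filters and scalings, an offset for exon length, a replicate block and each library left out. No 2 libraries of a group and set agreed within sampling noise (lowest chi-square per degree of freedom 13.8). Rn45s took 14.8% to 22.6% of VD counts and 0.511% to 0.950% of ZL counts and stayed in the library sizes. Genes named were all 10 of the route, their constitutive counterparts, listed genes past the threshold (otherwise the 2 with the smallest p), Irf1, Irf9, Rfx5, Psme3, the 3 nearest patterns of 4 genes, and Jak1. Ciita and the cell type markers named in the text were chosen after their values were seen. The genes and lists were chosen with earlier results of these data known, and some listed genes are not reported here.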

Additional observations from a re-analysis of the deposited data

Results flagged for a closer look

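Psmb10, at 351.3 CPM, and Psme1, at 622.1 CPM, in library Jak1 KO 4 stood far from the other 5 Jak1 KO libraries. The gap to the next library was 0.650 of the group's range for Psmb10 and 0.660 for Psme1, over the 95% critical value of Dixon's test for 6 samples. Of 32 groups examined 2 were picked out, and chance alone picks out about 1 in 20. The VD and ZL sets differ in level for both genes, which widens the range.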

How the results depend on the processing

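Over all genes, 58 were called, 126 by DESeq2, 220 by limma-voom, 14 with no set term, 94 with the exon length offset, 96 without wt 6, Jak1 KO 4 and Jak1 KO 6, and 39 to 77 with 1 library left out. Of the 10 genes 1 was called. The count was 2 with no filter, with DESeq2, with the replicate block and at an adjusted p of 0.1, 7 with limma-voom, 4 with the length offset (Tap1, Psmb9, Nlrc5 and B2m) and with the 3 libraries left out, 0 with no set term (2 with an unadjusted p under 0.05), and 1 to 2 with a library left out (2 without Jak1 KO 4, Jak1 KO 6 or wt 5). For no filter and for an adjusted p of 0.1, the number of all genes called is not given here. Tap1 was past the threshold in 22 of 23 alternatives, Nlrc5 in 8, B2m in 4 and Psmb9 in 3. The log2 fold change of Tap1 ran from -1.09 to -0.93. In VD alone 142 genes were called, 402 by DESeq2 and 62 to 354 with a library left out (81 without Jak1 KO 1, 354 without Jak1 KO 2, 62 without wt 1). In ZL alone DESeq2 called 45 genes, 1 of them of the 10, and the difference between sets 1 gene. The log2 fold change of Psme1 turned to -0.25 with limma-voom, -0.072 with the replicate block, -0.17 with the length offset and -0.15 with the 3 libraries left out, and ran from -0.23 to 0.11 with 1 left out. That of Psme2 turned to 0.056 with no set term and ran from -0.31 to 0.021 with 1 left out. The cause was not tested.

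Among the ratios, Psmb8 over Psmb5, Psmb9 over Psmb6 and Tap1 over Tap2 had adjusted p = 0.05 with the 3 libraries left out (exact permutation; differences -0.47, -0.56 and -0.84), where fewer relabelings are possible. With 1 library left out their ranges were -0.45 to -0.36, -0.55 to -0.48 and -1.01 to -0.78, all past the threshold. Psmb10 over Psmb7 ran from -0.35 to -0.20 and passed without wt 6 (-0.34). With the 3 libraries left out it was at -0.31 (exact permutation unadjusted p = 0.0333, with the same adjusted p as Psmb8 over Psmb5). Psmb9 over Tap1 ran from 0.29 to 0.80, passed without Jak1 KO 3 and without Jak1 KO 6, and passed with the replicate block (0.57, exact permutation adjusted p = 0.0469). Replicate numbers were not taken as pairs, since no label ties them and deviations of same-numbered libraries, which correlated at 0.043 to 0.668, passed 0.1 in 4 of 6, while 3 of 6 Jak1 KO libraries matched their own number best. With the replicate block 72 genes were called, and Nlrc5 had an adjusted p of 0.00212. All 10 genes had counts in all 12 libraries.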
